A study of Mus musculus with 4 samples.

Results

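The genes described here are 34 genes of the cell division cycle, chosen by symbol from a list and split by phase into 14 genes of DNA replication and 20 genes of G2 and mitosis. The gene list of the heart sections held 31 of them among 19465 genes, 13 for replication and 18 for mitosis. The expression of Rrm2, Ccnb1 and Cdc20 was not analysed here, though their promoters are counted among those searched. Expression was measured by Visium, which counts transcripts as unique molecular identifiers (UMIs) in a grid of spots laid under a tissue section, each spot a small region that can hold several cells. The hearts came from wild type FVB/NJ mice, all immunized with a peptide of MyHCα, the alpha heavy chain of cardiac myosin, and all given the immune checkpoint inhibitors (ICIs) anti-PD-1 and anti-CTLA-4. In 1 group of 2 sections the mice received the ICIs alone, and the labels record that myocarditis developed there. In the other group of 2 sections an IL-17A neutralizing antibody was added, directed at a cytokine of type 17 immune responses. The hearts were formalin-fixed and paraffin-embedded and cut at 5 µm. The labels give a batch number, 1 or 2, shared across the groups, and no age or sex, and leave unsaid whether the sections of a group are from separate mice, so the p-values capture only the spread between these sections.

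Spots numbered 2503 and 3052 in ICI-alone replicates 1 and 2 and 2604 and 2585 in antibody replicates 1 and 2. Total UMIs were 73167202, 66255242, 47882576 and 33005923 in that order. The median spot held between 27912 (ICI-alone replicate 1) and 12298 (antibody replicate 2) UMIs, so every level is given relative to depth. Cardiomyocyte markers summed to between 21120 and 51670 CPM (UMIs of the gene divided by the total, on a fixed scale) per section, in keeping with the label heart. The 5 atrial marker genes summed to between 417 and 7705 CPM, highest in antibody replicate 2. In CPM also scaled between sections, Nppa was at 3349 and 5314 CPM under ICIs alone, and at 412 and 5482 CPM with the antibody. In antibody replicate 2 Myl7 was at 535 CPM, against 0.28, 0.44 and 0.96 CPM in the other sections. Myl4 was at 1064 CPM there, against 3.56, 4.40 and 3.53 CPM. Of the spot barcodes, which name fixed grid positions, 1670 were used in all 4 sections.

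A dividing cell copies its DNA once in S phase and then parts the copies in mitosis, and the genes that serve these steps are transcribed in waves. Replication genes, among them the MCM helicase subunits that open the DNA and the enzymes that make its building blocks, are activated by E2F factors as cells pass from G1 to S. Genes for the mitotic kinases, cyclins and spindle proteins come later, through a CHR element and neighbouring CCAAT boxes in their promoters. Adult cardiomyocytes divide rarely, while macrophages, lymphocytes, fibroblasts and endothelial cells of an inflamed heart can divide, and in such sections a higher cell cycle transcript level can come from more dividing cells or from more RNA per cell, which cannot be told apart here.

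Promoters are shown first, because the 2 phases differ in the sequence words they carry. RefSeq promoters (build GRCm38.p6, 250 bases before to 50 after each start) were found for 28 of the 34 listed genes, 29 promoters in all, since Mcm7 has 2. Aurkb, Gins2, Mcm4, Tpx2, Kif20a and Ccna2 had none. Each was searched on both strands for 4 E2F words (TTTCCCGC, TTTCGCGC, TTTGCCGC and TTTGGCGC), for the CHR word TTTGAA and for CCAAT. An E2F word occurred in 6 of 13 replication promoters (46.2%) and in 1 of 16 mitosis promoters (6.25%), against 2.26% of all 32851 promoters. The CHR word occurred in 1 of 13 replication promoters (7.69%) and 11 of 16 mitosis promoters (68.8%), against 17.9% of all. CCAAT was common to both phases, in 69.2% and 87.5%, against 37.4% of all. A promoter with both CHR and CCAAT was seen for 7.69% of the replication set and 68.8% of the mitosis set, against 6.95% of all. The sequences below are the 250 bases before the start, 5′ to 3′, with these words in capitals. A match is a description of letters, not a shown binding site.
Mcm5, chr8:75109259-75109508, plus strand: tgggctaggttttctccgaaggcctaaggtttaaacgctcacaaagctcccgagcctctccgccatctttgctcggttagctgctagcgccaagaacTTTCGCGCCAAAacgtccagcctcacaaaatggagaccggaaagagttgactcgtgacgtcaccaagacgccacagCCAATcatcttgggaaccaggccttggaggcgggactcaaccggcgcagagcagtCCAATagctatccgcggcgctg
Mcm6, chr1:128359706-128359955, minus strand: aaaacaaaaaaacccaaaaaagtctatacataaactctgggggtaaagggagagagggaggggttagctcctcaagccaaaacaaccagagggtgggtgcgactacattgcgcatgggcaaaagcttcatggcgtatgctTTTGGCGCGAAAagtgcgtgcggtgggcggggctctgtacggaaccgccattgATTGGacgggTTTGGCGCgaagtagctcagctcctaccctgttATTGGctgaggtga
Cdk1, chr10:69352913-69353162, minus strand: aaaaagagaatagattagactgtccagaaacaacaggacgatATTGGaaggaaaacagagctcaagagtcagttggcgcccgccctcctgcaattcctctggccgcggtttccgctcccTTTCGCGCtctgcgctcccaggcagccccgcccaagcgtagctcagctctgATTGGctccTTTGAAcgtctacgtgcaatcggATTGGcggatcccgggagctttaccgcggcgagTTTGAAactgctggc
Top2a, chr11:99024190-99024439, minus strand: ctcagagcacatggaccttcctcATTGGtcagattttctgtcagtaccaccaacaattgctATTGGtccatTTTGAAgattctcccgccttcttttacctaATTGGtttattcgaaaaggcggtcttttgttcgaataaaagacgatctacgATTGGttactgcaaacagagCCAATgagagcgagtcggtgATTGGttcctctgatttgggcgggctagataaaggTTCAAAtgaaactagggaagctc
Ube2c, chr2:164769679-164769928, plus strand: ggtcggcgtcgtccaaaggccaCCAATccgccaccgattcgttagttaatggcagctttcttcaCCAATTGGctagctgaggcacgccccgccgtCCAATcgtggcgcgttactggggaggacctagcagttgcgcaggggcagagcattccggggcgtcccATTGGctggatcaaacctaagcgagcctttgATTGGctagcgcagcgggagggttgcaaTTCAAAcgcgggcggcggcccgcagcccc

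In Mcm5 the E2F words begin at positions -153 and -149, counted with the start site as 0, and overlap on opposite strands. Mcm6 has the same overlapping arrangement at -110 and -106 and a further E2F word at -47. Neither holds the CHR word. In Top2a, CHR words lie at -179 and -23 among 6 CCAAT boxes, and in Ube2c a CHR word lies at -29, again with 6 CCAAT boxes. The promoter of Cdk1 holds both kinds, an E2F word at -131 and CHR words at -71 and -15, and it was the only one of the 16 mitosis promoters with an E2F word. Tyms, Tk1, Birc5 and Nusap1 held none of the 3 kinds of word in their windows.

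With the IL-17A antibody the cell cycle genes were lower across whole sections, in both phases. In edgeR's quasi-likelihood test with Benjamini-Hochberg adjustment over all 18817 genes tested, 26 of the 31 genes fell and 0 rose, while 8.81% of all genes fell. By phase, 10 of 13 replication genes and 16 of 18 mitosis genes fell, with median log2 fold changes of -1.14 and -1.38, beside 0.09 for all genes tested. Every one of the 31 fold changes was negative, and for 30 of the 31 genes both antibody sections lay below both ICI-alone sections. The share of all genes separated in this way was not counted. With 2 sections a group, such separation can often arise without a treatment effect. An unadjusted p under 0.05 was seen for 28 of the 31 genes and for 6619 of all 18817. Levels are TMM-normalized CPM, UMIs relative to the library total and scaled between sections, and are compared between sections and not between genes.

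**Figure D1:**
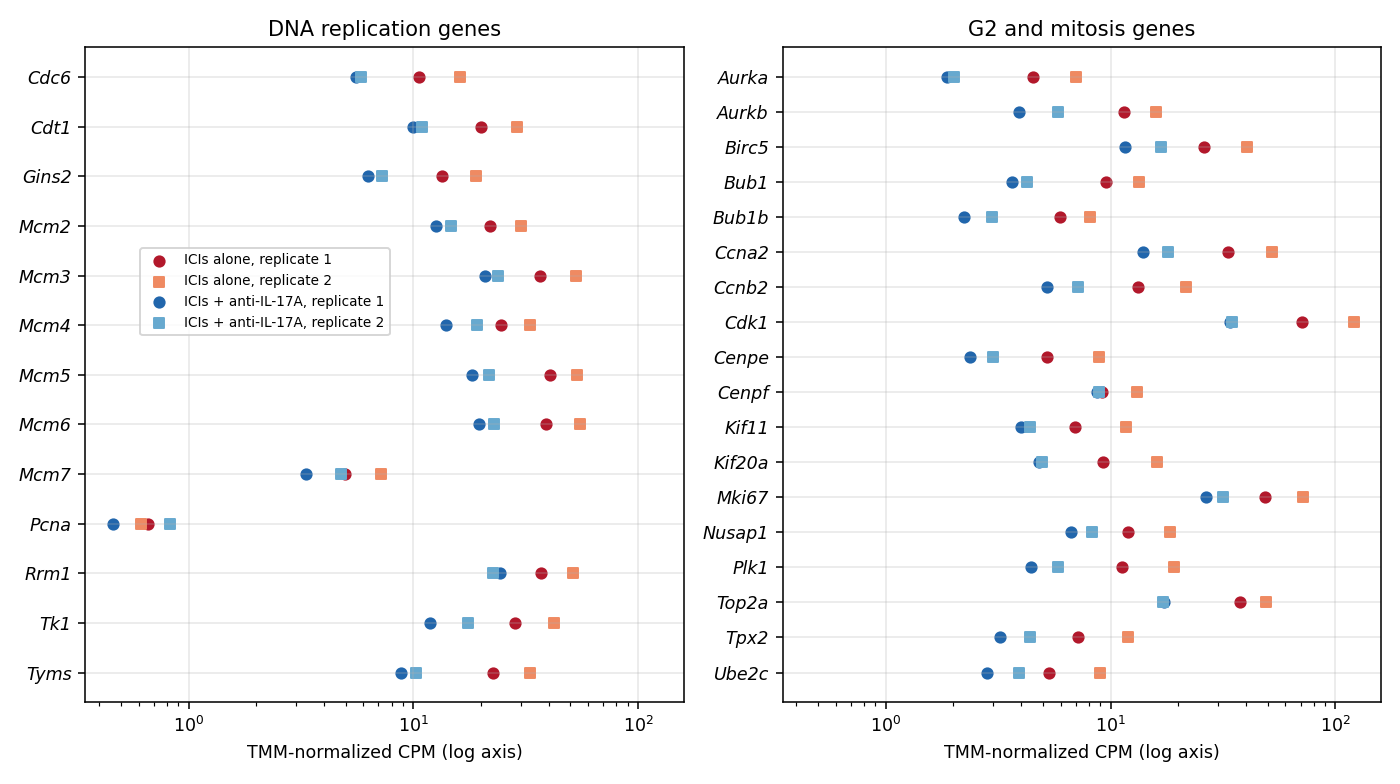
TMM-normalized CPM (log axis) of each of the 31 cell cycle genes in each section, with replication genes on the left and G2 and mitosis genes on the right. Red and orange points are the ICI-alone sections, dark and light blue points the antibody sections, and the blue points lie left of the red and orange ones for all genes but Pcna.

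Among the subunits of the MCM helicase, which unwinds DNA ahead of the replication fork, Mcm5 (ENSMUSG00000005410, chr8:75109468-75128439 in GRCm38.p6) stood at 40.5 and 53.3 CPM under ICIs alone, compared with 18.2 and 21.8 CPM in antibody sections. Both antibody sections were below both others, and Mcm5 fell by 1.23 ± 0.18 (SE) on the log2 scale (adjusted p = 0.0217). Mcm6 went from 38.9 and 54.9 CPM to 19.6 and 22.9 CPM (-1.14, adjusted p = 0.0234). Mcm3 was at 36.6 and 52.8 CPM against 20.8 and 23.7 CPM (-1.01, adjusted p = 0.0286). Mcm2 had the smallest fall of the subunits that passed, from 21.9 and 30.1 CPM to 12.6 and 14.7 CPM (-0.93, adjusted p = 0.0329). The remaining 2 subunits were in the same order without passing. Mcm4 was at 24.5 and 33.1 CPM against 13.99 and 19.2 CPM (-0.80, adjusted p = 0.0530), and Mcm7 was at 4.95 and 7.15 CPM against 3.32 and 4.77 CPM (-0.59, adjusted p = 0.169).

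Genes that license origins or assemble the helicase fell by similar amounts. Cdc6 and Cdt1, which load the MCM complex, had log2 fold changes of -1.23 and -1.23, and Gins2, a subunit of the active helicase, had -1.26 (highest adjusted p of the 3, 0.0271). Of the enzymes that supply nucleotides, Rrm1, the large subunit of ribonucleotide reductase, was at 37.0 and 51.2 CPM under ICIs alone, compared with 24.4 and 22.6 CPM in antibody sections. It fell by 0.91 ± 0.18 (adjusted p = 0.0299). Tk1, thymidine kinase, was at 28.4 and 42.3 CPM against 11.9 and 17.4 CPM and fell by 1.27 (adjusted p = 0.0288). Tyms, thymidylate synthase, had the largest fall among the replication genes (-1.54 ± 0.21, adjusted p = 0.0217).

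Pcna, the sliding clamp of the DNA polymerases, was the exception. It was at 0.66 and 0.62 CPM under ICIs alone, compared with 0.46 and 0.82 CPM in antibody sections, on 44, 42, 22 and 29 UMIs, and was the one gene whose groups overlapped. Its log2 fold change was -0.02 ± 0.35 (adjusted p = 0.965) and turned positive under library-size scaling (0.08), without antibody replicate 1 (0.36) and without atrial-rich spots.

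Among the genes that drive mitotic entry, Cdk1 (ENSMUSG00000019942, chr10:69335146-69352912), the kinase that starts mitosis, was at 70.8 and 121 CPM under ICIs alone, compared with 33.97 and 34.9 CPM in antibody sections. The ICI-alone sections were apart, but the lower of them was still above both antibody sections, and Cdk1 fell by 1.48 ± 0.25 (adjusted p = 0.0227). Ccna2 was at 33.5 and 52.3 CPM against 13.9 and 18.1 CPM (-1.43, adjusted p = 0.0228), and Ccnb2 at 13.3 and 21.6 CPM against 5.20 and 7.16 CPM (-1.50, adjusted p = 0.0255). Plk1, a kinase acting from mitotic entry to exit, was at 11.2 and 19.2 CPM against 4.43 and 5.85 CPM (-1.57, adjusted p = 0.0256). Its fold change matched that of Aurka (-1.57), the kinase of the spindle poles.

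Genes for chromosome structure and the spindle also fell. Mki67, which coats mitotic chromosomes and is the usual marker of dividing cells, was at 48.7 and 71.8 CPM against 26.6 and 31.7 CPM and fell by 1.05 ± 0.21 (adjusted p = 0.0291). Top2a, the topoisomerase that untangles the DNA copies, was at 37.5 and 49.1 CPM against 17.2 and 17.2 CPM. It had the lowest adjusted p of the 31 genes (-1.33 ± 0.17, adjusted p = 0.0210). Birc5 and Aurkb encode subunits of the chromosomal passenger complex, which corrects spindle attachments. Birc5 was at 26.2 and 40.3 CPM against 11.7 and 16.7 CPM (-1.23, adjusted p = 0.0322), and Aurkb at 11.4 and 15.9 CPM against 3.93 and 5.85 CPM (-1.49, adjusted p = 0.0240). Nusap1, which bundles spindle microtubules, was at 11.985 and 18.4 CPM against 6.66 and 8.27 CPM (-1.03, adjusted p = 0.0412). The spindle checkpoint genes Bub1 and Bub1b fell by 1.54 and 1.44, and the motor and spindle genes Kif11, Kif20a, Cenpe and Tpx2 by between 1.15 and 1.39.

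The mitosis genes that did not pass were Cenpf and Ube2c. Cenpf, a kinetochore protein, was at 9.19 and 13.1 CPM under ICIs alone, compared with 8.66 and 8.92 CPM in antibody sections (-0.34 ± 0.21, adjusted p = 0.271), the nearest to 0 of the mitosis genes. Ube2c, which marks mitotic cyclins for breakdown, was at 5.34 and 8.96 CPM against 2.82 and 3.92 CPM (-1.09 ± 0.30, adjusted p = 0.0583). The count of 26 moved with single sections. Without antibody replicate 1 it was 2 (Tyms and Top2a), without antibody replicate 2 it was 15, and with only genes of at least 5 CPM in 2 sections tested it was 5 of 27.

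Summed over the phase and divided by library size, the replication genes made up 274 and 434 CPM under ICIs alone, compared with 156 and 194 CPM in antibody sections. The mitosis genes made up 299 and 522 CPM against 157 and 197 CPM. ICI-alone replicate 2 was highest and antibody replicate 1 lowest in both. The ratio of mitosis to replication UMIs was 1.09 and 1.20 under ICIs alone, compared with 1.01 and 1.01 in antibody sections, so mitosis genes held a larger share in the ICI-alone sections. With 2 sections a group this was not tested, since an exact permutation test could not pass the threshold.

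Markers of other cell types moved in the same comparison. Of 12 macrophage genes 9 fell and 0 rose (median log2 fold change -1.07), and their sum was 3136 and 4173 CPM under ICIs alone against 1627 and 2220 CPM with the antibody. The 31 cell cycle genes per macrophage UMI came to 0.183 and 0.229 under ICIs alone, compared with 0.193 and 0.176 in antibody sections, so these groups overlapped. Per T cell UMI they came to 5.91 and 10.5 against 2.62 and 3.06, and these groups did not overlap. Of 8 collagen genes 6 fell (median -2.44), with sums of 8547 and 21110 CPM against 2083 and 2432 CPM. All 6 neutrophil genes fell (median -2.75), and 4 of 6 fibroblast genes fell and 0 rose (median -1.19). In either direction 0 of 12 T cell genes and 0 of 6 cardiomyocyte genes passed. All 6 cardiomyocyte fold changes were positive all the same (median 0.645). Their sums were 33210 and 21120 CPM under ICIs alone against 51670 and 43840 CPM with the antibody. No macrophage, collagen or T cell gene was at 0 in any section. The part of these cell types in the fall of the cell cycle genes was not tested.

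Further genes of the same pathway were read from 5 lists. Of 27 other replication genes 9 fell and 0 rose (median -0.76), led by Dbf4, the activator of the origin-firing kinase (-1.25, adjusted p = 0.0225), and by Fen1 (-1.09) and Lig1 (-1.10), which join lagging-strand fragments, and Chaf1b (-1.29), a subunit of a histone loader. Of 26 other mitosis genes 20 fell and 0 rose (median -1.16), among them Ect2 (-1.59), Nuf2 (-1.67), Cdca8 (-1.37) and Pbk (-1.42). Dbf4 stood at 12.7 and 16.9 CPM under ICIs alone, compared with 6.03 and 6.39 CPM in antibody sections, and Nuf2 at 10.3 and 16.4 CPM against 3.63 and 4.80 CPM. In both lists the genes that passed had the sign of the 31 genes.

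Upstream of S phase, 7 of 17 genes that drive entry into S phase fell and 0 rose (median -0.58). Myc, a growth-promoting transcription factor, was at 73.8 and 97.5 CPM against 28.04 and 35.6 CPM and fell by 1.43 (adjusted p = 0.0212). E2f1, the factor that activates replication genes, fell by 1.20, and the cyclin genes Ccne1 and Ccne2, which act at the start of S phase, by 1.16 and 1.15. Of 17 genes that restrain the cycle 1 rose and 3 fell. Cdkn1c, an inhibitor of cyclin-dependent kinases, rose from 6.0001 and 3.93 CPM to 17.2 and 9.92 CPM (1.45, adjusted p = 0.0350), while Cdkn2c (-0.72), Trp53 (-0.65) and Btg2 (-0.68) fell. Of 18 growth factor and receptor genes 1 rose and 6 fell. Ereg, which encodes epiregulin, an EGF-family growth factor, had the largest difference among the 18, 12.6 and 26.8 CPM against 2.07 and 1.90 CPM (-3.31, adjusted p = 0.0188). Hbegf, another such ligand, fell by 0.79, Pdgfra, a receptor of fibroblasts, fell by 0.90, and Il34, a ligand of the macrophage growth factor receptor, rose by 1.08 (adjusted p = 0.0236).

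Next, the position of the transcripts within the sections was examined. Each spot was thinned at random to 5000 UMIs, and spots were called macrophage-rich with at least 27 UMIs of 12 macrophage genes, T cell-rich with at least 3 UMIs of 12 T cell genes and collagen-rich with at least 107 UMIs of 8 collagen genes. Each threshold is the smallest count at which the share of spots reaching it, averaged over the 4 sections with equal weight, is at most 10%. Background spots are in none of these classes. ICI-alone replicates 1 and 2 held 273 and 684 macrophage-rich, 74 and 73 T cell-rich and 157 and 1002 collagen-rich spots. The antibody sections held 94 and 61 macrophage-rich, 156 and 144 T cell-rich and 12 and 0 collagen-rich spots. A class can overlap another, and a T cell call rests on few UMIs. Tests of a class against background spots kept the spots that it shared with another class.

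**Figure D2:**
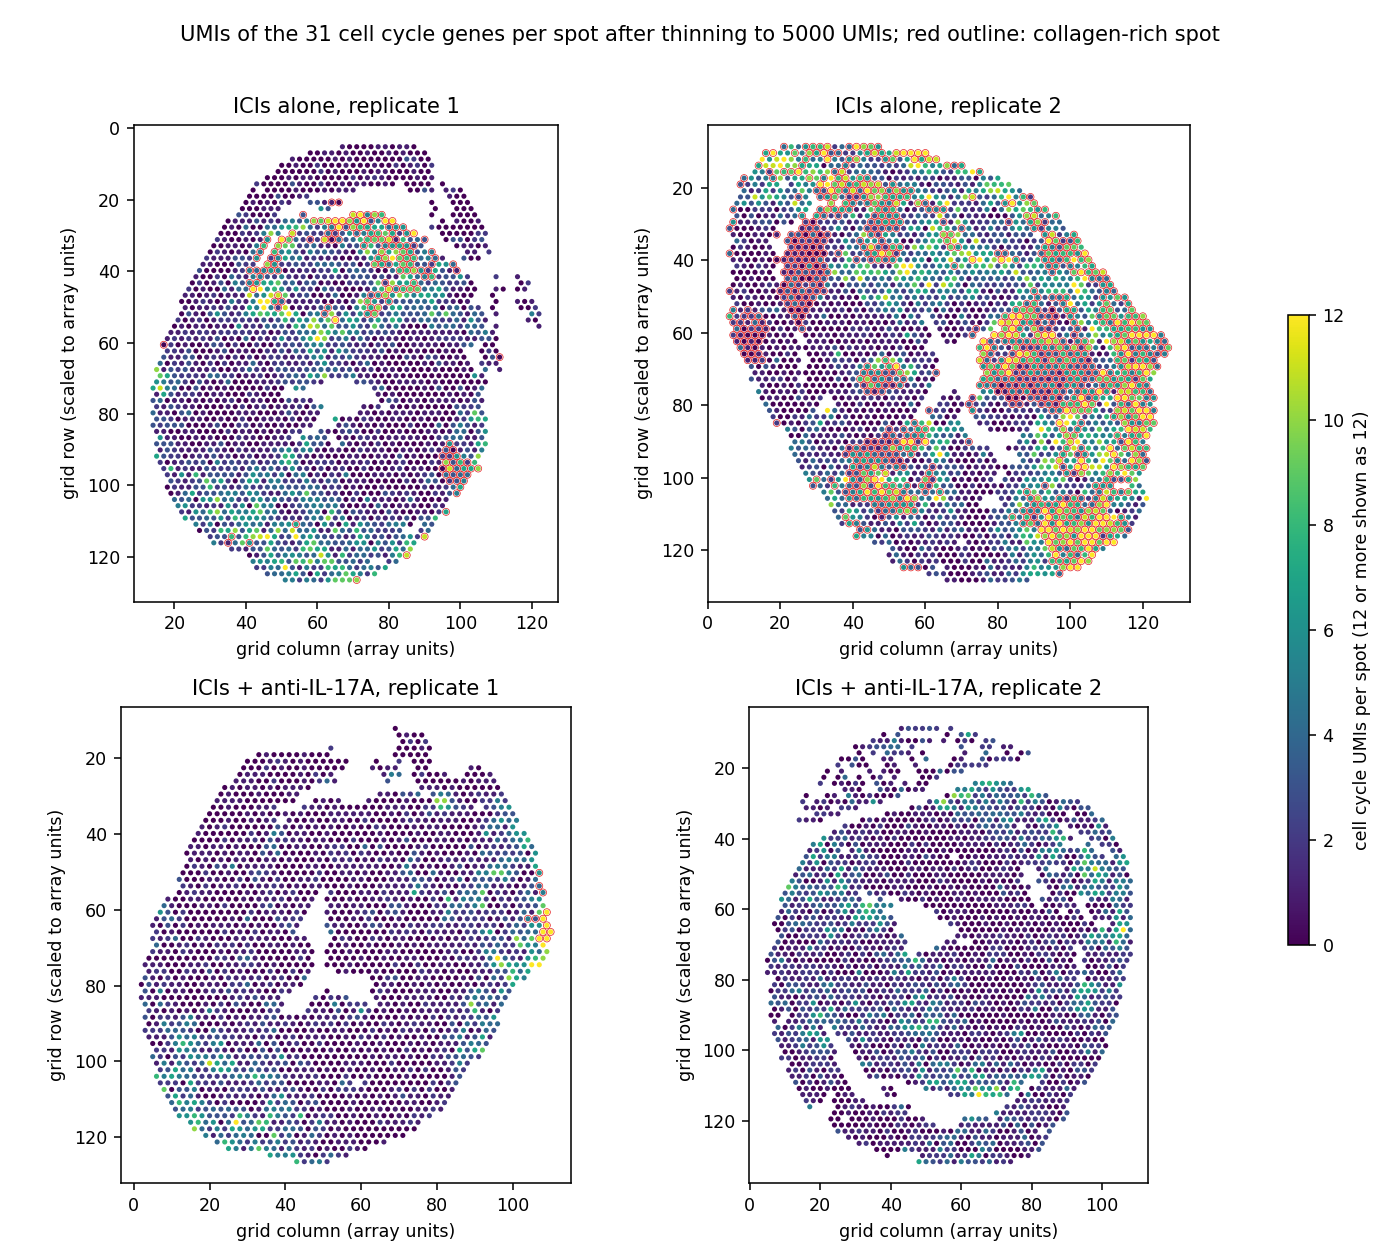
UMIs of the 31 cell cycle genes in each spot after thinning to 5000 UMIs (colour, 12 or more shown as 12), drawn on the grid of each section, with collagen-rich spots outlined in red. Bright spots cluster in and beside the collagen-rich areas of the ICI-alone sections, and antibody replicate 2 has 2 spots with 12 or more.

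In the thinned spots the 31 genes gave a mean of 2.50 and 4.31 UMIs per spot under ICIs alone and of 1.46 and 1.80 UMIs with the antibody. No UMI of any of them was seen in 25.9% and 13.5% of ICI-alone spots and in 39.6% and 29.0% of antibody spots. Both phases were detected together in 38.2% and 59.7% of ICI-alone spots against 21.4% and 31.4% of antibody spots. Spots with 12 or more cell cycle UMIs were rare and unevenly spread. They numbered 21 of 2492 spots in ICI-alone replicate 1 (0.843%, 95% Wilson interval 0.552 to 1.28%) and 148 of 3048 in replicate 2 (4.86%, 4.15 to 5.68%). In the antibody sections they numbered 12 of 2499 (0.48%, 0.275 to 0.837%) and 2 of 2548 (0.0785%, 0.0215 to 0.286%). The intervals cover counting error only. Of these spots 52.4%, 74.3% and 58.3% were collagen-rich in ICI-alone replicates 1 and 2 and antibody replicate 1, where that class made up 6.30%, 32.9% and 0.48% of all spots. In ICI-alone replicate 2, 100 of the 148 had another such spot beside them, and the largest connected group held 14. Detection of the phases went together: a mitosis UMI was seen in 64.0%, 79.0%, 48.8% and 59.6% of spots with a replication UMI and in 35.6%, 44.7%, 29.6% and 38.7% of spots without one. The transcripts of the 2 phases in a spot can belong to different cells.

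The authors' deposited table gives Moran's I, a measure of spatial clustering, for each gene and section. In the authors' deposited table the highest of the 31 genes was Cdk1 in every section, at 0.542 and 0.504 under ICIs alone, compared with 0.368 and 0.174 in antibody sections. In the authors' deposited table the median of the replication genes was 0.191 and 0.181 under ICIs alone, compared with 0.107 and 0.0537 in antibody sections, and that of the mitosis genes was 0.172 and 0.132 against 0.0804 and 0.0538. The authors' deposited table has all-gene medians of 0.0180, 0.0155, 0.0179 and 0.00869. Median UMIs per spot had the same order over the sections as the medians of both phases, though not as those of all genes, and the part of depth was not tested. In the authors' deposited table Pcna did not pass an adjusted p of 0.05 in 3 sections, with I below 0 there.

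**Figure D3:**
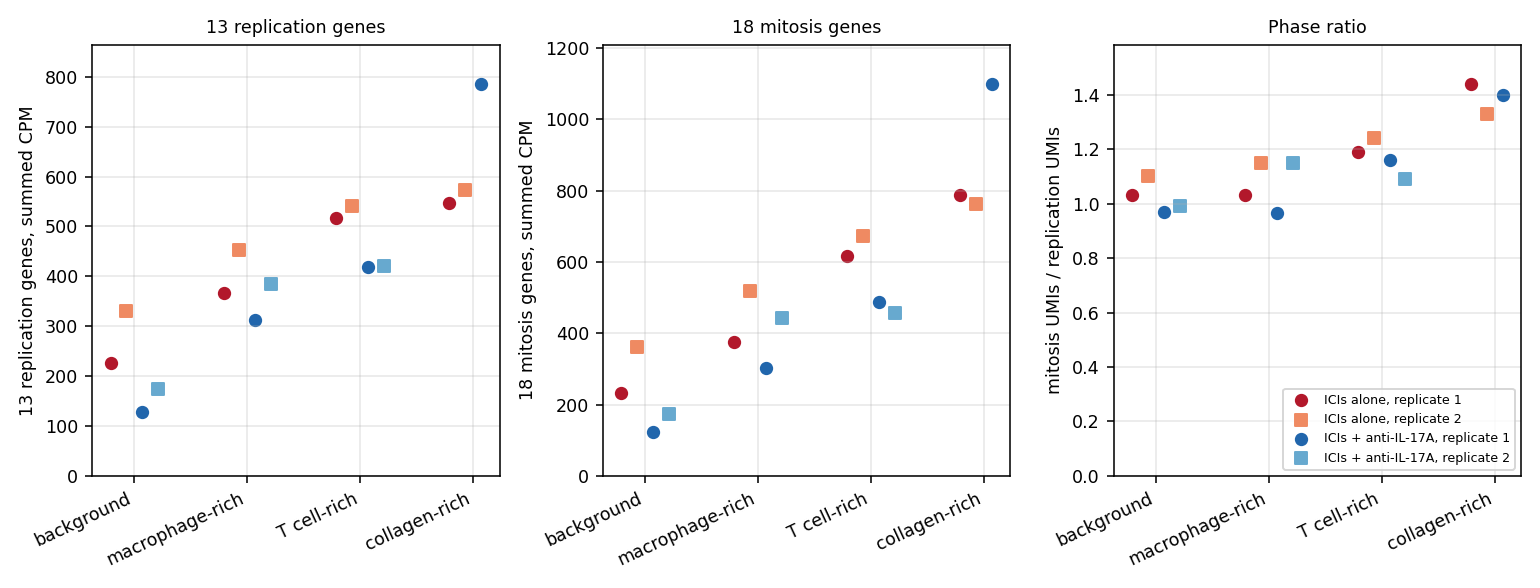
Summed CPM (library-size scaled) of the 13 replication genes and of the 18 mitosis genes, and the ratio of mitosis to replication UMIs, by spot class and section. The lowest level in every section is in background spots, and in the 3 sections with collagen-rich spots the ratio is highest there; the collagen-rich point of antibody replicate 1 rests on 12 spots.

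Each of the 3 classes had higher cell cycle levels than background spots. All 31 genes together made up 461 and 692 CPM of background spots under ICIs alone, compared with 253 and 347 CPM in antibody sections. In macrophage-rich spots they made up 742, 971, 616 and 828 CPM in the same order, in T cell-rich spots 1134, 1215, 907 and 878 CPM, and in collagen-rich spots of the ICI-alone sections 1335 and 1335 CPM. The 12 collagen-rich spots of antibody replicate 1 stood at 1886 CPM. The tests of 1 class against another or against background spots left out the 32 genes that define the classes. In them each section was compared with itself.

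In T cell-rich spots every cell cycle gene was higher. All 31 passed against background spots, while 27.3% of all genes were higher in that test. The median log2 fold changes were 1.03 for replication and 1.18 for mitosis genes. All 31 were also higher in each of the 4 sections, a share that was not counted for all genes. Cdk1 went from 54.8, 91.6, 29.6 and 33.4 CPM in background spots to 137, 146, 101 and 89.6 CPM in T cell-rich spots, in the order ICI-alone replicates 1 and 2 and antibody replicates 1 and 2. It rose by 1.30 ± 0.15 on the log2 scale (adjusted p = 3.22e-05). Mcm5 rose from 35.2, 44.5, 17.7 and 21.1 CPM to 78.1, 72.2, 43.4 and 52.2 CPM (1.11 ± 0.12, adjusted p = 1.79e-05), the lowest adjusted p of the 31. The largest rises were those of Cenpe, a kinetochore motor (1.48), and Ube2c (1.41). The smallest was that of Cenpf (0.73 ± 0.14, adjusted p = 0.00118). Pcna rose too, from 0.60, 0.48, 0.37 and 0.85 CPM to 1.55, 1.53, 0.78 and 2.01 CPM (1.31 ± 0.39, adjusted p = 0.0149). The ratio of mitosis to replication UMIs was 1.19, 1.24, 1.16 and 1.09 in T cell-rich spots.

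T cell-rich spots also held more transcripts from the marker lists of other immune cells, whose genes T cells may share. Their macrophage sum was 4543, 4917, 3632 and 3717 CPM against 2496, 2737, 1312 and 2030 CPM in background spots, 4 of 4 natural killer cell genes and 5 of 6 neutrophil genes were higher, and 6 of 6 cardiomyocyte genes were lower. The part of each cell type in the rise was not tested. Among spots outside the other classes, cell cycle levels climbed with the T cell count, from 375 CPM at 0 UMIs to 1028 CPM at 3 UMIs in ICI-alone replicate 1. In ICI-alone replicate 2 they went from 626 CPM at 0 UMIs to 1051 CPM at 2 UMIs, and stood at 1004 CPM over 18 spots at 3 UMIs. In antibody replicates 1 and 2 they went from 186 and 280 CPM at 0 UMIs to 1027 and 992 CPM at 4 or more.

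**Figure D4:**
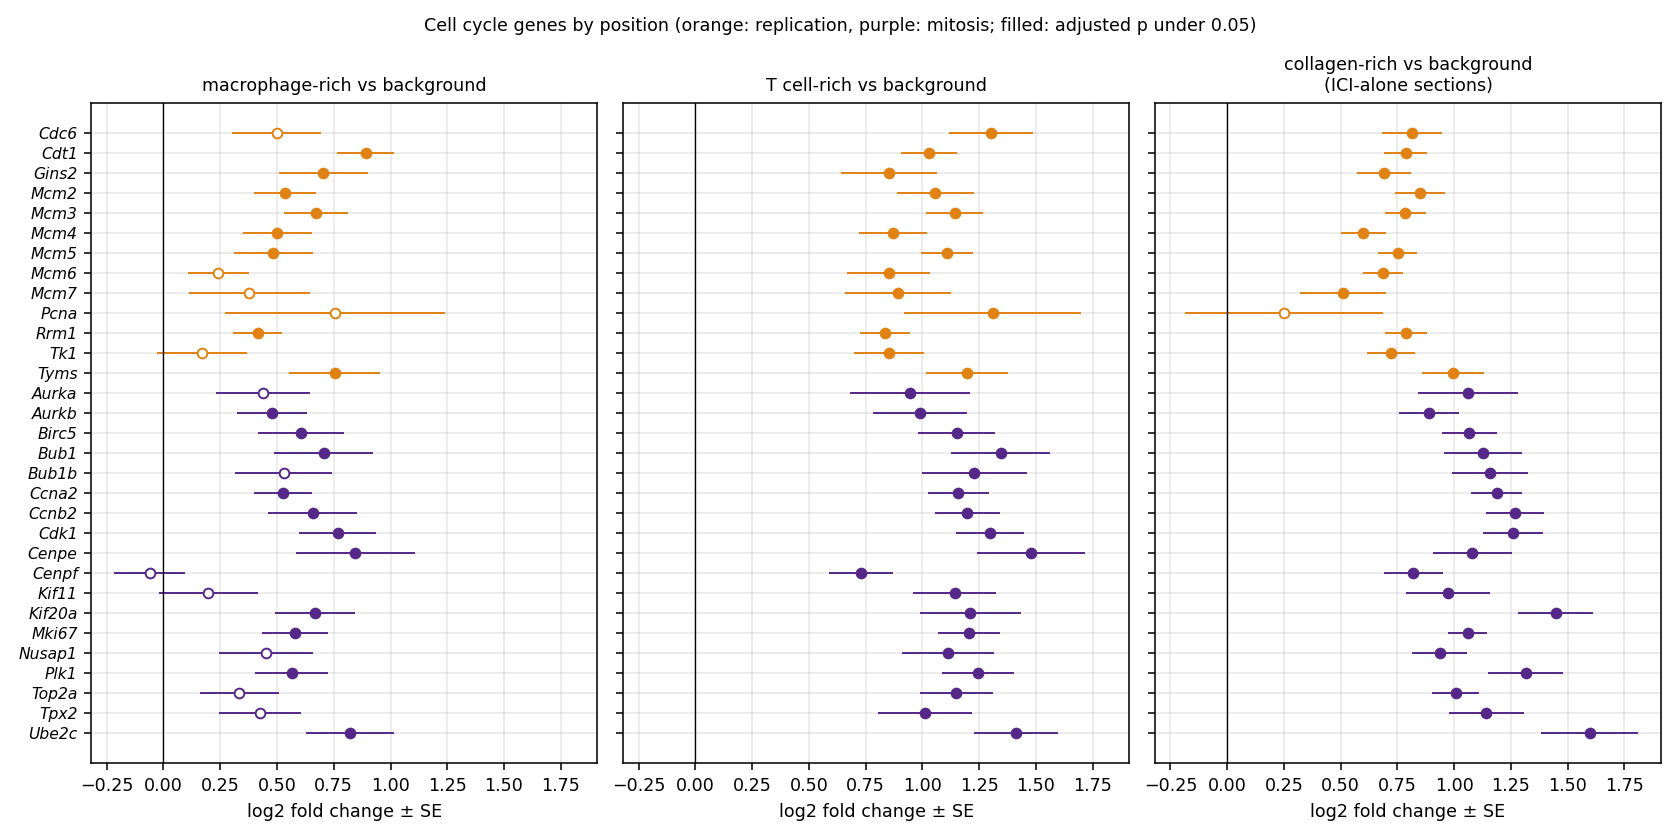
Log2 fold change ± SE of each cell cycle gene between a spot class and background spots of the same section, for macrophage-rich and T cell-rich spots over 4 sections and collagen-rich spots over the 2 ICI-alone sections. Orange marks replication genes, purple mitosis genes and filled points an adjusted p under 0.05; 19, 31 and 30 of 31 points are filled.

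In macrophage-rich spots cell cycle genes of both phases were also higher. Of the 31 genes 19 were higher than in background spots and 0 lower, 8 for replication and 11 for mitosis, while 23.8% of all genes were higher. The medians were 0.50 and 0.55. Cdt1 had the lowest adjusted p (0.89 ± 0.13, adjusted p = 0.00106), with 16.8, 22.3, 9.64 and 11.5 CPM in background spots and 35.1, 36.3, 19.9 and 18.7 CPM in macrophage-rich spots. Cdk1 rose from 57.7, 96.0, 30.3 and 33.7 CPM to 88.7, 118, 58.1 and 84.5 CPM (0.77 ± 0.17, adjusted p = 0.00726). Mki67 rose from 43.3, 56.7, 24.2 and 31.3 CPM to 55.4, 71.6, 38.1 and 67.6 CPM (0.58 ± 0.15, adjusted p = 0.0127). Top2a did not pass (0.33 ± 0.17, adjusted p = 0.145): it was higher in 3 sections, while ICI-alone replicate 2 had 40.3 CPM in macrophage-rich and 41.8 CPM in background spots. Nor did Mcm6 (0.24), Tk1 (0.17), Kif11 (0.20) and Cenpf (-0.06). In these spots 5 of 6 neutrophil genes were higher and 6 of 6 cardiomyocyte genes lower, and their part in the result was not tested. Macrophage-rich spots that were also T cell-rich or collagen-rich were kept here. Those in neither other class stood at 661, 788, 507 and 713 CPM for all 31 genes. Background spots stood at 461, 692, 253 and 347 CPM. In ICI-alone replicate 2 the 316 macrophage-rich spots that were also collagen-rich, but not T cell-rich, stood at 1149 CPM. The part of this overlap was not tested.

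The count in macrophage-rich spots moved with the choice of spots. It was 5 without ICI-alone replicate 1 and 9 with a threshold set in each section, and it was 30 with the threshold at 20% of spots. With the threshold at 5% it was 1, but only 3 sections then held enough macrophage-rich spots to be fitted, so threshold and sections changed together. Summed cell cycle levels did not keep climbing with the macrophage count. Among spots outside the other classes they were highest just below the threshold, at 18 to 26 macrophage UMIs, in 3 of 4 sections. Levels there and at 27 to 53 macrophage UMIs were 776 and 664 CPM in ICI-alone replicate 1, 984 and 779 CPM in ICI-alone replicate 2, and 684 and 507 CPM in antibody replicate 1. Antibody replicate 2 differed, with 631 and 713 CPM. Spots with 0 to 8 macrophage UMIs were lowest in all 4 sections, at 180.0, 380, 154 and 215 CPM.

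**Figure D5:**
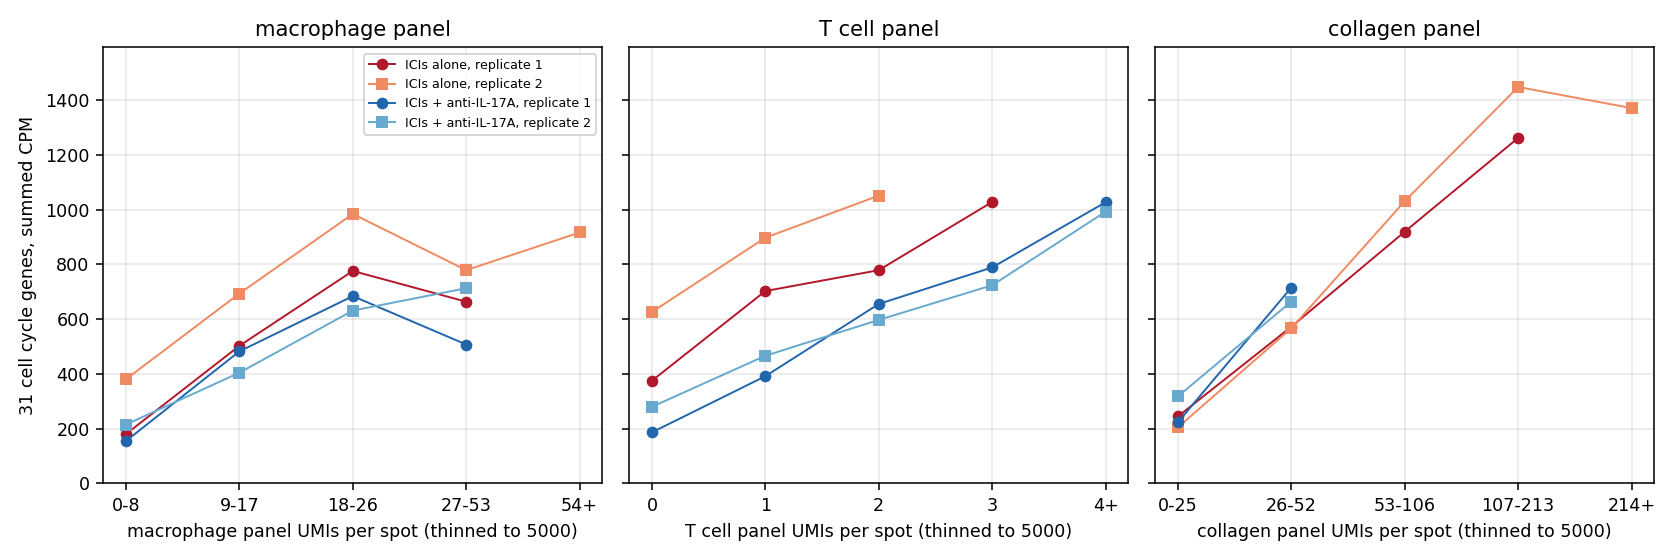
Summed CPM of the 31 cell cycle genes in spots binned by macrophage, T cell or collagen UMIs after thinning to 5000 UMIs, 1 line per section, for spots outside the other 2 classes and bins of at least 20 spots. The macrophage curve peaks at 18 to 26 UMIs in 3 sections, while the collagen curve of the ICI-alone sections climbs from 244 and 204 CPM to 1262 and 1448 CPM at 107 to 213 UMIs.

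Distance on the grid gave a like picture. Among spots neither T cell-rich nor collagen-rich, those 1 step from a macrophage-rich spot were above the macrophage-rich spots themselves in 3 sections, at 831 against 661 CPM, 899 against 788 CPM and 664 against 507 CPM. In antibody replicate 2 they were below, at 614 against 713 CPM. In antibody replicate 1 the level was highest at 2 steps, with 727 CPM over 56 spots. At 4 or more steps the level was lowest in every section, with 282 and 467 CPM for ICIs alone and 204 and 267 CPM with the antibody. Summed macrophage levels were lower at each further step in all 4 sections, from between 5468 and 7478 CPM in the macrophage-rich spots to between 1043 and 2026 CPM at 4 or more steps.

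A direct comparison set macrophage-rich spots that were not T cell-rich against T cell-rich spots that were not macrophage-rich. Neither side left out collagen-rich spots, and their part was not tested. Summed collagen levels were 10570, 26850, 5416 and 4517 CPM in these macrophage-rich spots, with the ICI-alone replicates first. In these T cell-rich spots they were 15640, 26360, 5475 and 4310 CPM. Of 30 genes tested 15 were lower in the macrophage-rich spots and 0 higher, 6 for replication and 9 for mitosis, while 11.4% of all genes were lower. The median log2 fold change was -0.51. Top2a had 43.1, 45.4, 21.5 and 35.2 CPM in macrophage-rich and 81.0, 79.0, 61.3 and 35.1 CPM in T cell-rich spots (-0.87 ± 0.18, adjusted p = 0.00919). The values were nearly equal in antibody replicate 2 and apart in the other sections. Kif11, the motor that separates the spindle poles, had the largest difference (-0.97 ± 0.22, adjusted p = 0.0134), and Mcm5 was lower as well (-0.67 ± 0.15, adjusted p = 0.0143). Cdt1 (-0.01) and Gins2 (0.02) did not pass. All 6 cardiomyocyte genes were lower in the macrophage-rich spots too, with their part not tested. The count was 0 without ICI-alone replicate 1, 6 without ICI-alone replicate 2, 8 by DESeq2, 2 with the threshold at 20% and 6 with thinning to 2000 UMIs.

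Collagen-rich spots could be tested in the ICI-alone sections only, since the antibody sections held 12 and 0 of them. There 30 of 31 genes were higher than in background spots (23.7% of all genes were higher), with a median of 0.75 for replication and 1.10 for mitosis genes. Cdk1 was at 55.4 and 92.3 CPM in background and at 178 and 169 CPM in collagen-rich spots (1.26 ± 0.13, adjusted p = 1.96e-06). Mki67 was at 41.6 and 54.5 CPM against 98.5 and 102 CPM (1.06 ± 0.09, adjusted p = 1.34e-07). The 2 sections differed in their background spots more than in their collagen-rich spots for both genes. Ube2c (1.60), Kif20a, a motor of late mitosis (1.45), and Plk1 (1.31) had the largest rises, all mitosis genes. Among replication genes Tyms rose most (1.00 ± 0.14, adjusted p = 2.35e-05), and Pcna did not pass (0.25 ± 0.44, adjusted p = 0.662). In these spots 4 of 6 fibroblast and 5 of 6 neutrophil genes were higher and 6 of 6 cardiomyocyte genes lower, and their part was not tested. The collagen fit left 1 residual degree of freedom to measure spread, against 3 in the macrophage and T cell fits over 4 sections. Its smaller p-values therefore do not show firmer support than theirs.

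The balance of the phases differed between classes. The ratio of mitosis to replication UMIs was 1.44 and 1.33 in collagen-rich spots under ICIs alone and 1.40 in the 12 such spots of antibody replicate 1. It was 0.959, 1.00, 0.916 and 1.15 in macrophage-rich spots that were not collagen-rich, and 1.03, 1.10, 0.968 and 0.993 in background spots. Along the collagen count the level of all 31 genes climbed from 244 to 1262 CPM in ICI-alone replicate 1 and from 204 to 1448 CPM in ICI-alone replicate 2, between 0 to 25 and 107 to 213 collagen UMIs. In antibody spots with 26 to 52 collagen UMIs the level was 715 and 664 CPM, and in ICI-alone spots of that range 572 and 567 CPM. At that collagen count, among spots outside the other 2 classes, the antibody sections were not below the others. At 0 to 25 collagen UMIs the groups overlapped, with 223 and 318 CPM against 244 and 204 CPM. So they did at 53 to 106, with 1112 and 911 CPM over 15 and 19 antibody spots against 919 and 1031 CPM. The antibody sections were below at 0 T cell UMIs, with 186 and 280 CPM against 375 and 626 CPM, and in every higher T cell bin. They were also below at 9 to 17 macrophage UMIs, with 482 and 404 CPM against 502 and 693 CPM. The same held at 18 to 26, with 684 and 631 CPM against 776 and 984 CPM. At 0 to 8 macrophage UMIs the groups overlapped, with 154.5 and 215 CPM against 180 and 380 CPM. They overlapped at 27 to 53 too, with 507 and 713 CPM against 664 and 779 CPM. None of these comparisons of values was tested.

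Set against macrophage-rich spots that were not collagen-rich, collagen-rich spots that were not macrophage-rich had higher levels of 27 of 30 genes tested and lower levels of 0, while 21.4% of all genes were higher. The mitosis genes all passed (18 of 18, median 1.07), and 9 of 12 replication genes did (median 0.56). Top2a was at 39.5 and 35.5 CPM in macrophage-rich and at 79.5 and 83.6 CPM in collagen-rich spots (1.13 ± 0.09, adjusted p = 2.54e-05). Kif11 had the largest fold change (1.24 ± 0.18), and Tk1 led the replication genes (1.03 ± 0.10). Mcm7 (0.52), Gins2 (0.30) and Cdt1 (-0.20) did not pass, and Cdt1 was lower in both sections. In the same fit 6 of 6 fibroblast genes and 6 of 6 cardiomyocyte genes were higher and 4 of 6 neutrophil genes lower in the collagen-rich spots. The part of these cell types was not tested, and the fit rests on 2 sections of 1 group, with 1 residual degree of freedom.

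Last, treatment was compared within a spot class, and so between different sections. The genes that define the classes were kept in these tests, except in the interaction. In background spots 19 of 31 genes were lower with the antibody and 0 higher, while 7.18% of all genes were lower. The medians were -0.92 for replication and -1.19 for mitosis genes. Top2a was at 29.4 and 37.2 CPM under ICIs alone, compared with 13.9 and 15.3 CPM in antibody sections (-1.19 ± 0.15, adjusted p = 0.0164), and Mcm5 at 33.0 and 41.5 CPM against 15.7 and 18.6 CPM (-1.12 ± 0.16, adjusted p = 0.0204). In these spots 6 of 6 neutrophil genes (median -2.74) and 6 of 8 collagen genes (median -1.91) were also lower. So were 5 of 6 fibroblast genes (median -1.11) and 5 of 12 macrophage genes (median -0.81). The collagen and macrophage genes also define which spots are background. Myl7, an atrial marker, was at 642 CPM in background spots of antibody replicate 2 and at 0.29, 0.32 and 0.87 CPM in those of the other sections. The part of these genes and of atrial tissue was not tested. The count was 0 without antibody replicate 1, 6 without ICI-alone replicate 2 and 29 without ICI-alone replicate 1. It was also 7 with library-size scaling, 4 with the filter at 5 CPM, and 0 with the threshold at 20% of spots or set in each section.

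In T cell-rich spots 1 of 30 genes was lower with the antibody, Cdt1, and 0 were higher, while 1.2% of all genes were lower. Cdt1 was at 38.3 and 47.5 CPM under ICIs alone, compared with 22.5 and 19.6 CPM in antibody sections (-1.01 ± 0.21, adjusted p = 0.0480). All 30 fold changes were negative (median -0.46, beside 0.01 for all genes tested). An unadjusted p under 0.05 was seen for 11 of the 30 and for 2052 of all 11411 genes tested. With the batch number as a replicate block 5 genes were lower. DESeq2, library-size scaling, a threshold set in each section and leaving out ICI-alone replicate 2 each gave 0. Mki67 was at 89.7 and 103 CPM against 85.6 and 77.4 CPM (-0.23 ± 0.16, adjusted p = 0.488), which did not pass although the groups did not overlap. In the same spots 5 of 8 collagen genes and 3 of 5 neutrophil genes were lower, with their part not tested.

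In macrophage-rich spots 0 of 30 genes passed in edgeR and 0 by DESeq2, and 0% of all genes did in edgeR. Of the 30 genes 28 had negative fold changes (median -0.48, beside -0.01 for all genes tested). An unadjusted p under 0.05 was seen for 5 of the 30 and for 2181 of all 13053 genes tested. Cdk1 was at 92.2 and 133 CPM under ICIs alone, compared with 69.1 and 92.2 CPM in antibody sections (-0.49 ± 0.26, adjusted p = 0.404), so the groups met at 92.2 CPM. Mcm5 overlapped, with 51.1 and 59.1 CPM against 26.4 and 55.3 CPM (-0.48 ± 0.35, adjusted p = 0.546). The antibody sections held 94 and 61 such spots, and their spread limits what could be detected. The lowest adjusted p of any gene in this comparison was 0.183. Without antibody replicate 2, 4 of 31 genes were lower, and so were 1169 of all 15399 genes tested, with 455 higher.

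The interaction tested whether the treatment difference itself differed between macrophage-rich and background spots. It passed for 0 of 31 genes in edgeR and 0 by DESeq2, and for 0% of all genes in edgeR. An unadjusted p under 0.05 was seen for 4 of the 31 and for 1168 of all 18058 genes tested. Fold changes of the interaction were positive for 28 of 31 genes, with a median of 0.45. The largest was that of Mcm7 (0.89 ± 0.44, adjusted p = 0.767). Without antibody replicate 1 it passed for 1 gene, without antibody replicate 2 for 3 genes, and with the threshold at 5% of spots, which left 3 sections, for 5 genes. Calls over all genes moved as well, from 0 to 189 higher and 47 lower of 18230 in the first of these fits, 550 higher and 2040 lower of 18663 in the second and 402 higher and 1179 lower of 18568 in the last. The test thus showed no difference of the antibody effect between these positions, nor that the effects are alike. For collagen-rich spots no such test could be fitted.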

How the data were processed

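Spatial transcriptomes of 4 heart sections were used, 2 per group by the labels' treatment field. The deposited matrices hold whole-number UMI counts for each gene in each spot, made with Space Ranger 2.1.0 per the file headers; the submitters' processing notes name mm10 and Seurat 5.1.0, with no role stated. A second deposited table by the authors has Moran's I, a score of spatial clustering, and adjusted p-values of unstated method, which were only copied.

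UMIs were summed per section or spot class and tested with edgeR 4.0.16 (quasi-likelihood, filterByExpr, TMM, Benjamini-Hochberg at 0.05 over all genes tested). Spot classes came from spots thinned to 5000 UMIs, and spots under that depth (between 4 and 105 per section) were in no class. Classes needed 20 spots in a section. Tables ran in Python 3.11.15 and R 4.3.3, and the tests were checked on simulated data. A count of 3 corresponds to between 0.0410 and 0.0909 CPM. No doublet caller or filter on spots was applied.

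Treatment was fitted without a block, and class comparisons had section as block. The labels give the groups a shared batch number, so same-batch sections are pairs. Their deviations from the group means correlated at 0.175 across 18817 genes, which are not independent. With 2 sections a group this is 1 value, the same for either batch by construction. Alternatives were other scalings, DESeq2 1.42.0, other filters, other thresholds and thinning, leaving out sections and batch as a block. Spots rich in Myl7, Myl4 and Sln were left out in 1 alternative chosen after seeing the data.

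The genes, their phases and the other lists were chosen with earlier results of these data known. Values per section are printed for the 7 replication and 10 mitosis genes of highest mean CPM and for genes that did not pass, and up to 4 genes of smallest p come from each other list.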

Additional observations from a re-analysis of the deposited data

How the results depend on the processing

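Over 12 alternatives the whole-section fold changes of the 31 genes gave 368 values, of which 295 kept their direction and their side of the threshold, 60 lost a call and 9 gained one. The 4 that reversed all belong to Pcna (-0.02 with all sections), at 0.0805 with library-size scaling, 0.364 without antibody replicate 1 (its range with a section left out is -0.474 to 0.364), 0.00208 without atrial-rich spots and 0.00551 without spots rich in Myl7, Myl4 and Sln. Of the 26 genes that fell, 24 lost the call under at least 1 alternative, and Tyms (highest adjusted p 0.0439) and Top2a (0.0421) did not. The whole-section count was 5 with the filter at 5 CPM and between 2 and 30 with a section left out. In macrophage-rich spots it was 1 with the threshold at 5%, which also left only 3 sections, 30 with the threshold at 20%, 9 with a threshold per section and between 5 and 19 with a section left out. Between macrophage-rich and T cell-rich spots it was 8 by DESeq2, 2 with the threshold at 20%, 6 with thinning to 2000 UMIs and between 0 and 16 with a section left out. For treatment in T cell-rich spots it was 0 with library-size scaling, by DESeq2 and with a threshold per section, 3 with no filter, and between 0 and 3 with a section left out. With the batch number as a replicate block it was 5. In background spots it was 7 with library-size scaling, 4 with the filter at 5 CPM, 0 with the threshold at 20%, 0 with a threshold per section and between 0 and 29 with a section left out. In macrophage-rich spots treatment gave between 0 and 4 with a section left out, and the interaction gave 5 with the threshold at 5%, again on 3 sections, and between 0 and 3 with a section left out. The causes were not tested.

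The replicate block moved no other count of cell cycle genes by over 1.5 times (28 for whole sections, 27 in background and 0 in macrophage-rich spots). Counts over all genes moved more, to 2319 lower and 1520 higher in whole sections, 2129 and 1048 in background spots and 403 and 368 in T cell-rich spots. Library-size scaling moved the median log2 fold change of all genes from 0.09 to 0.18 in whole sections, where calls were 1029 lower and 840 higher in place of 1658 and 571. It moved the medians to 0.42, 0.32 and 0.30 for macrophage-rich, T cell-rich and collagen-rich spots against background, with 6310, 6070 and 6298 genes higher and 2674, 2351 and 2307 lower in place of 3707, 3807 and 3507 higher and 4032, 3512 and 3941 lower. Between collagen-rich and macrophage-rich spots it gave 3620 higher and 1958 lower in place of 2720 and 2604 (median 0.12). For treatment it gave 82 higher and 94 lower in place of 77 and 137 in T cell-rich spots and 446 and 515 in place of 422 and 1232 in background spots (median 0.13). The medians were 0.16 for treatment in macrophage-rich spots and 0.27 for the interaction. Treatment within collagen-rich spots could not be fitted at the shared threshold, and collagen comparisons could not be fitted with an ICI-alone section left out. Pcna was measured on 22 to 44 UMIs a section, and the part of depth in its missing call was not tested.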
